A study of Mus musculus with 3 samples.

Results

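The collagen genes of the mouse are described here across the cell clusters and the brains of a single-cell study: every gene of the deposited expression table whose symbol reads Col, a number, a, a number, with nothing after it. The table held 36 such genes among 17551 genes, measured in 4668 cells, and they accounted for 33305 UMIs, the molecular barcodes that let each captured transcript be counted once. The cells came from female C57BL/6 mice, 2 to 3 months old, with either naive brains or brains bearing metastases about 2 weeks after E0771 cells (a mouse mammary carcinoma line) were injected into the carotid artery. After perfusion, a papain-based kit dissociated the brains and a Percoll gradient enriched the suspension for immune cells, so cell shares are not those of the tissue. Each brain was stained with 6 antibody tags and with a hashtag of its own, and all were pooled into a single run. The labels name 3 libraries of that pool (cDNA, antibody tags and hashtags) and do not tie any of the 4 hashtags to a naive or a metastatic brain. The brains are therefore called by hashtag number and set side by side, with no comparison of conditions.

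Collagens are secreted or membrane proteins built of 3 chains wound into a triple helix, and each gene encodes 1 chain. Fibrillar collagens form the cables of connective tissue, type IV chains form the sheet of basement membranes, type VI chains form beaded filaments around cells, and fibril-associated, short-chain and multiplexin collagens bind to or link these networks. In the brain, collagen lies mainly along blood vessels, in the meninges and in the stroma of the choroid plexus, and little lies in the parenchyma.

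By class, 4 beaded filament genes gave 40.7% of the collagen UMIs, 6 type IV genes 20.5%, 10 fibrillar genes 11.3%, 6 fibril-associated genes 9.05%, 2 short-chain genes 8.77%, 2 multiplexins 7.33%, 2 other collagens (Col7a1 and Col26a1) 1.96% and 4 transmembrane collagens 0.384%. The deposit gives each cell 1 of 11 cluster numbers from 0 to 10, without names, so clusters were described by marker genes. Cluster 1 was choroid plexus-like: 7 of 8 choroid plexus markers were at their highest there, and Ttr reached a median of 3131 UMIs per 10000. Cluster 4 was endothelial-like (9 of 9 markers highest, and 3 of 8 pericyte markers). Cluster 9 was smooth muscle-like (8 of 8 markers highest, and 4 of 8 pericyte markers). The summed level of the pericyte markers had a median of 4.02 UMIs per 10000 in cluster 4 and 3.93 in cluster 9. Clusters 3 and 6 carried the CD45 tag, with at least 300 tag counts in 99.8% and 91.0% of cells. Clusters 0, 2, 7 and 10 were rich in Rhox5, a homeobox gene on the list of mammary carcinoma markers, at medians of 4.07 to 5.48 UMIs per 10000, and were left unnamed. Cluster 9 was close to them in 2 brains, with Rhox5 at 4.76 and 3.93 for hashtags 3 and 4 (0.972 for hashtag 1) and a median of 2.67 for the keratin Krt8, against 2.53 in cluster 0, and cluster 8 had Rhox5 at 4.63 in the hashtag 4 brain. Of that list of 8 genes, 4, 4, 2 and 5 were at a median of 0 in clusters 0, 2, 7 and 10, and the summed level of the list ranged from 5.21 to 8.78 over the brains of these clusters. Cluster 5 had the highest mitochondrial share (median 14.8% of UMIs), and cluster 8 led both 3 of 6 fibroblast and 6 of 7 astrocyte markers; neither was named.

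Depth differed among the brains, whose median UMIs per cell were 4370.5, 5599.5, 12450 and 12806 for hashtags 1 to 4. A level is the number of UMIs of a gene per 10000 UMIs, summed over the cells of a cluster and brain, and the level of a cluster is the median over the brains with at least 20 cells in it. That left 4 brains for each of the clusters 1 to 5, 3 brains (all but hashtag 2) for clusters 0, 8 and 9, and 2 brains for clusters 6, 7 and 10. Since the assay counts the 3′ end of each transcript once, levels were not divided by gene length. The clusters were made from these same RNA counts, so differences between clusters are a description with no test. RNA of other cells can enter a droplet, and its part in the levels was not tested. Ttr was at 101 to 114 UMIs per 10000 even in cluster 10, and Rhox5 at 0.444 to 0.787 over the brains of the CD45-tagged clusters.

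Summed over all 36 genes, the collagen level was low in the CD45-tagged clusters and higher in the 9 others. The median was 1.83 UMIs per 10000 in cluster 3 (1.29 to 2.60 over 4 brains) and 1.87 in cluster 6 (1.71 and 2.04 in 2 brains). In the other clusters it lay between 5.98 in cluster 7 and 11.8 in cluster 5, and no brain of those clusters was below 4.73. The composition differed more than the total. In cluster 0, beaded filament genes gave a median of 51.5% of collagen UMIs (37.7% to 52.7%). In cluster 1, short-chain and fibril-associated genes together gave 66.5% (53.1% to 76.99%). Basement membrane genes (type IV and multiplexins) gave 47.9% in cluster 4 (36.3% to 74.7%). Cluster 5, with the highest total, was not alike in the 4 brains. Its beaded filament genes gave 5.91%, 0.794%, 36.4% and 42.3% for hashtags 1 to 4. Its short-chain genes gave 37.6%, 33.3%, 10.4% and 6.96%, and its fibril-associated genes 34.6%, 46.8%, 12.3% and 8%. Fibrillar genes gave 29.2% in cluster 8 (21.4% to 34.9%) and 21.6% in cluster 9 (11.9% to 25.1%). Their share was as high in the CD45-tagged clusters, at 29.6% in cluster 3 (13.3% to 44.4%) and 21.0% in cluster 6 (20.3% and 21.7%), on a low total. As a level, the fibrillar median was highest in cluster 8, at 2.92 UMIs per 10000 (1.01 to 4.92). Cluster 9 followed at 1.81 (0.842 to 2.56) and cluster 5 at 1.18 (0.850 to 1.52). The median was 0.473 in cluster 3 (0.241 to 1.02) and 0.395 in cluster 6 (0.347 and 0.443). The hashtag 1 brain did not set clusters 8 and 9 above cluster 3, at 1.01 and 0.842 against 1.02.

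**Figure D1:**
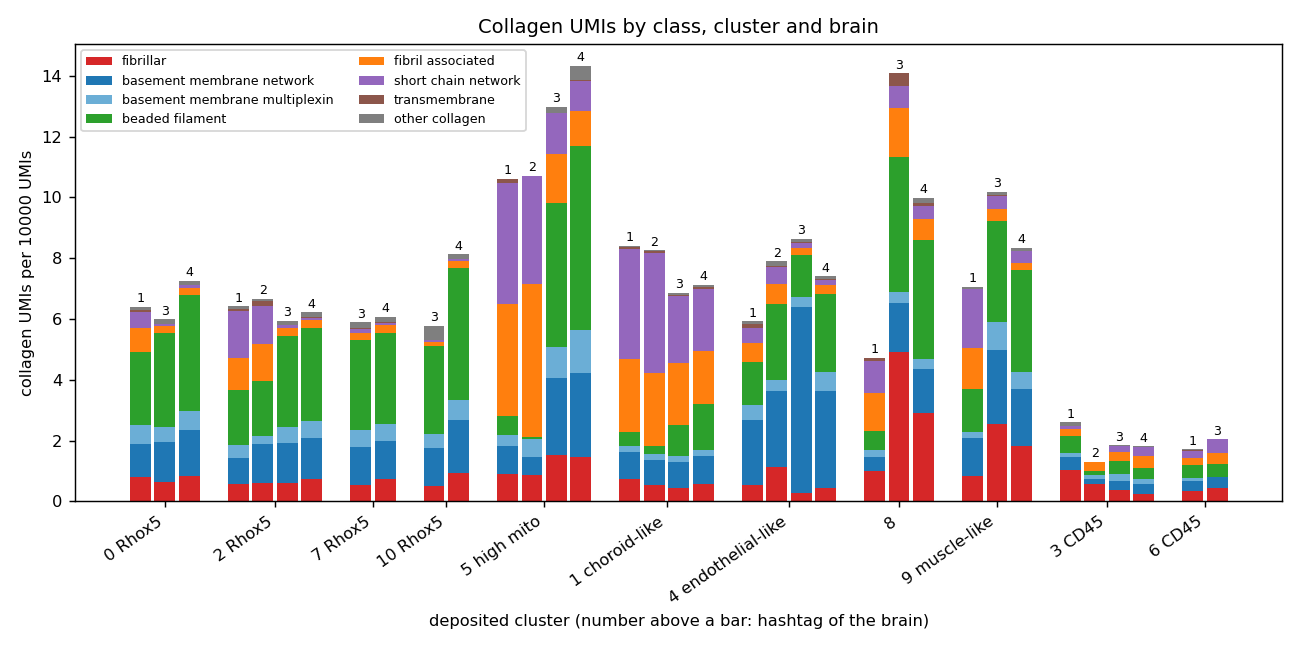
Collagen UMIs per 10000 UMIs (vertical axis) by collagen class (colours) in each cluster, with 1 bar per brain of at least 20 cells and the hashtag number above it. The bars of the CD45-tagged clusters 3 and 6 are the shortest, short-chain and fibril-associated genes fill most of the bars of cluster 1, and the fibrillar parts of the bars reach their highest median levels in clusters 8 and 9.

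Of the 36 genes, 24 had at least 50 UMIs, and each of these was assigned to the cluster of its highest median level. Cluster 8 led 7 of them: Col1a1, Col1a2, Col3a1, Col5a2, Col12a1, Col6a1 and Col6a2. Among all 12663 genes with as many UMIs, 7.08% were highest in cluster 8. Cluster 5 led 6 (13.7% of all genes): Col5a1, Col5a3, Col18a1, Col9a3, Col8a2 and Col16a1. Cluster 1 led 5 (12.1% of all genes): Col8a1, Col4a3, Col4a4, Col4a5 and Col17a1. Cluster 4 led Col4a1, Col4a2 and Col14a1 (10.9% of all genes), the Rhox5-rich clusters led Col6a3 and Col7a1 (24.4%), the CD45-tagged clusters led Col27a1 (26.2%), and cluster 9 led none (5.72%). The place of several of these genes rested on a few brains. Within the hashtag 1 to 4 brains, Col6a1 was highest in clusters 0, 2, 5 and 5, so cluster 8 led it by the median only. Col6a2 was highest in clusters 0, 4, 8 and 5 of these brains. Without the hashtag 3 brain, cluster 5 led 2 genes and the Rhox5-rich clusters led 8, and without the hashtag 4 brain they led 3 and 4.

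**Figure D2:**
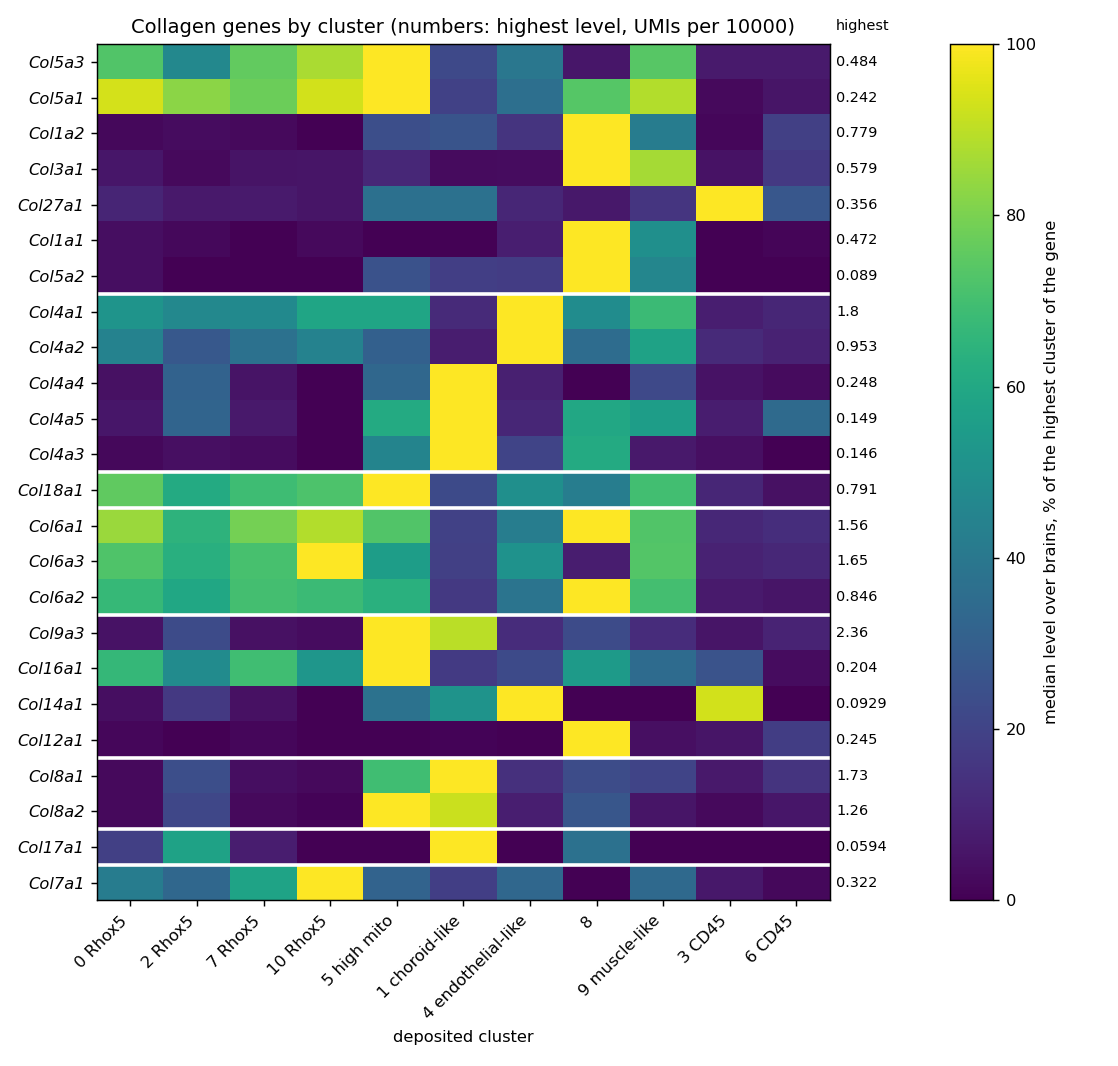
Median level over brains of the 24 collagen genes with at least 50 UMIs, in percent of the highest cluster of the gene (colour), by cluster (columns) and ordered by class (white lines). The figure at the right of a row is the level, in UMIs per 10000, in its highest cluster; each gene has 1 fully bright cluster, at 1.8 for Col4a1 in cluster 4 and 1.73 for Col8a1 in cluster 1.

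Type I and type III fibrillar collagens had their highest median levels in clusters 8 and 9, although cluster 1, with more cells, held the most Col1a2 UMIs (163 of 428, against 85 in cluster 8 and 63 in cluster 9). Col1a1 and Col1a2 encode the chains of type I collagen, and Col3a1 the chain of type III collagen, which is common in vessel walls. Col3a1 was at 0.149, 1.55 and 0.579 UMIs per 10000 in cluster 8 of the hashtag 1, 3 and 4 brains (5, 23 and 26 UMIs) and at 0.130, 0.825 and 0.50002 in cluster 9 (2, 30 and 49 UMIs). The hashtag 1 brain was the lowest in both clusters, and its exact Poisson 95% interval in cluster 8 (0.0483 to 0.347) lay below those of the hashtag 3 brain (0.982 to 2.33) and the hashtag 4 brain (0.378 to 0.848). In every other cluster the median of Col3a1 was at most 0.0955. Clusters 8 and 9 did not separate, since their ranges over brains overlapped. Col1a1 was at 0.298, 0.472 and 0.579 in cluster 8 of these brains and at 0, 0.468 and 0.235 in cluster 9. Col1a2 was at 0.327, 2.43 and 0.779 in cluster 8 and at 0.324, 0.605 and 0.327 in cluster 9.

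Few cells carried most of these UMIs. In cluster 8, 41 of 185 cells had a Col1a1, Col1a2 or Col3a1 UMI, and 5 cells held at least 50% of the 185 UMIs. In cluster 9, 36 of 162 cells had one, and again 5 cells held at least 50% of the 190 UMIs. Cells with at least 3 such UMIs, a split chosen after the values had been seen, carried partly different markers in the 2 clusters. In cluster 8, 13 of 15 such cells had a UMI of Dcn (decorin, a collagen-binding proteoglycan of fibroblasts), against 7 of 144 cells with none. Fewer had the fibroblast markers Lum (4 of the 15 and 5 of the 144) and Pdgfra (3 of the 15 and 12 of the 144). Col12a1, a fibril-associated collagen, was seen in 8 of those 15 cells and in 1 of the 144. Acta2 (smooth muscle actin) was also higher in the 15 cells, at 3.86 UMIs per 10000 against 0.506 in the 144. Rgs5, a pericyte and smooth muscle marker, was not, at 0 against 0.215. In cluster 9, 2 of 9 such cells had a Dcn UMI, against 4 of the 126 cells with none. Acta2 stood at 95.4 UMIs per 10000 in the 9 cells against 8.90 in the 126, and Rgs5 at 15.2 against 0.879. Rhox5 was at 0.609 in those 9 cells and at 3.84 in the 126. Median depth was 3404 UMIs in the 9 cells and 8730 in the 126. In cluster 8 it was 4822 UMIs in the 15 cells and 3423.5 in the 144.

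Levels of Col3a1 in these clusters were higher in cells without a Rhox5 UMI than in cells with one. In cluster 9, Col3a1 was at 5.90 UMIs per 10000 in the 9 cells of the hashtag 3 brain without a Rhox5 UMI and at 0.186 in its 22 cells with one. In the hashtag 4 brain it was at 2.18 in 17 cells without and 0.326 in 66 cells with Rhox5. By UMIs the cells without Rhox5 held 24 of 30 in the hashtag 3 brain and 20 of 49 in the hashtag 4 brain. In cluster 8 the levels were 2.13 without and 0.780 with Rhox5 for hashtag 3, and 3.73 and 0.102 for hashtag 4. Acta2 followed the same order in cluster 9, at 42.3 without and 7.22 with a Rhox5 UMI for hashtag 3 and at 22.6 and 8.62 for hashtag 4. A Rhox5 UMI is more readily seen in a cell of greater depth, and the cells were not matched for depth. The part of depth, of Rhox5-bearing cells or of free RNA in these values was not tested.

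The 250 bases before the annotated starts of Col1a2 and Col3a1 are shown because these genes are highest in the same cluster but part from each other in cluster 1. Sequences are from RefSeq (GRCm38.p6, the assembly also called mm10), 5′ to 3′ on the strand of the gene, with capitals marking the letters TATAAA or CCAAT or GGGCGG read on either strand. Col1a2 lies at chr6:4505618-4541543 (window chr6:4505368-4505617, plus strand), and the window of Col3a1 is chr1:45311288-45311537, plus strand.
Col1a2: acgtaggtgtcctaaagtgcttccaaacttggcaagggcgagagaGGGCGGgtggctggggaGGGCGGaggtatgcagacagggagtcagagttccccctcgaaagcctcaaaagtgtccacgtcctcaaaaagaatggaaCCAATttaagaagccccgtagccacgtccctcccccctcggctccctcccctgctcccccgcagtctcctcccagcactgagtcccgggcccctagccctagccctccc
Col3a1: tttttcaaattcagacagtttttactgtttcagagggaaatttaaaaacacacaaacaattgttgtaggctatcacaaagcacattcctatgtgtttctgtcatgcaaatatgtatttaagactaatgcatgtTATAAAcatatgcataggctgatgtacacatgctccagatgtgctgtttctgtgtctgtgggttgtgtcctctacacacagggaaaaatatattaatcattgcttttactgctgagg
The Col1a2 window holds CCAAT once and GGGCGG 2 times, and the Col3a1 window holds TATAAA once. Of all 32851 promoter windows of this length, 12.4% hold TATAAA, 33.8% CCAAT and 32.7% GGGCGG. Of the 30 windows of the 28 collagen genes found in the RefSeq table, 4, 11 and 20 hold them.

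In cluster 1 the 2 type I chains were far from equal. Col1a2 was at 0.409, 0.281, 0.117 and 0.121 UMIs per 10000 in the hashtag 1 to 4 brains, 163 UMIs in all, while Col1a1 had 3 UMIs in all and at most 0.011 in any brain. The ratio of Col1a2 to Col1a1 UMIs was 54.3 in cluster 1, 1.98 in cluster 8 and 1.58 in cluster 9.

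The other fibrillar genes had other patterns. Col5a3 and Col5a1 encode type V chains, which join type I fibrils. Col5a3 was at 0.353, 0.320 and 0.488 UMIs per 10000 in cluster 0 of the hashtag 1, 3 and 4 brains, and highest in cluster 5, at 0.269, 0.170, 0.698 and 0.798 in the 4 brains. In cluster 8 it had 31 UMIs in the hashtag 4 brain, 1 in the hashtag 1 brain and 0 in the other two. Col5a1 was at 0.271, 0.215 and 0.226 in cluster 0 and at a median of 0.242 in cluster 5, and these ranges overlapped. Col5a2, with 51 UMIs, led in cluster 8 at 0.089. Col27a1 led in the CD45-tagged cluster 3 in all 4 brains, at 0.903, 0.503, 0.208 and 0.133 UMIs per 10000 (8, 7, 14 and 11 UMIs). Cluster 3 led all 8 microglia and macrophage markers, but also 4 of 8 lymphocyte and 2 of 5 monocyte markers. The summed level of the lymphocyte markers there had a median of 30.4 and ran from 5.46 to 150 over the brains. Cells of cluster 3 with a UMI of Tmem119 or P2ry12, 2 microglial markers, had Col27a1 at 0.977, 0.598, 0.295 and 0.166 in the 4 brains (6, 7, 10 and 6 UMIs), and cells with neither at 0.735, 0, 0.120 and 0.107 (2, 0, 4 and 5 UMIs). The exact Poisson 95% intervals of the 2 kinds of cells overlapped in every brain. This split was chosen after the values were seen. Among the scarce fibrillar genes, Col11a2 had 21 UMIs, 9 of them in cluster 2, and its lead in cluster 10 rested on 1 UMI. Col2a1 had 14 UMIs and Col11a1 had 9.

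**Figure D3:**
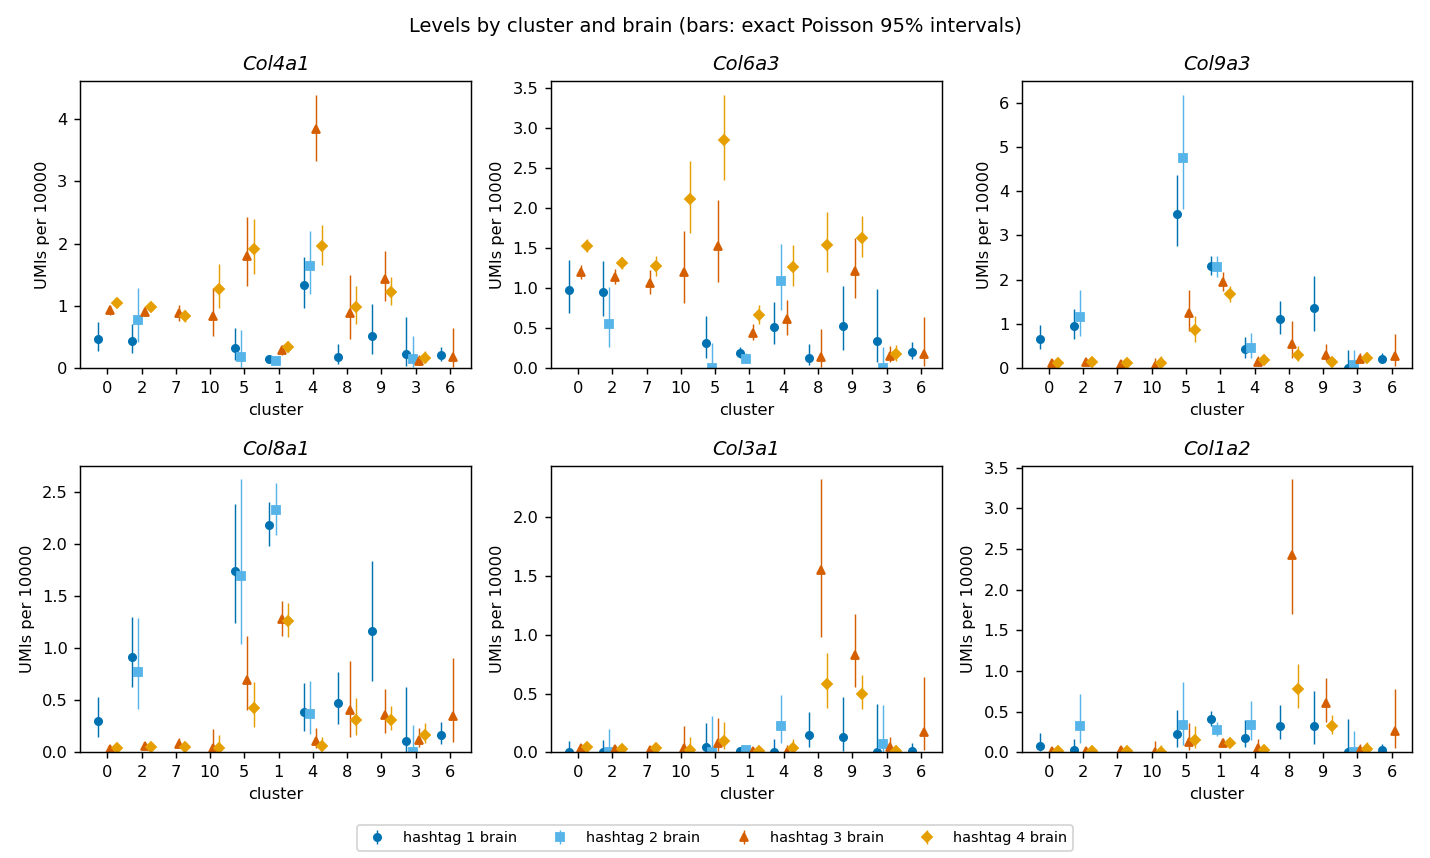
Levels in UMIs per 10000 (vertical axes) of 6 collagen genes by cluster (horizontal axes), with 1 point per brain of at least 20 cells and exact Poisson 95% intervals, which cover counting error only. By the median over brains, Col4a1 is highest in cluster 4, Col9a3 in clusters 5 and 1, and Col8a1 in cluster 1. Col3a1 is highest in clusters 8 and 9, and Col1a2 in cluster 8, though in the hashtag 1 brain Col1a2 is highest in cluster 1.

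The main basement membrane chains, Col4a1 and Col4a2, were highest in the endothelial-like cluster 4 in all 4 brains. They form the trimer found in nearly all basement membranes, the vascular one included. Col4a1 was at 1.33, 1.64, 3.84 and 1.96 UMIs per 10000 there (44, 44, 209 and 151 UMIs). Col4a2 was at 0.725, 0.671, 2.26 and 1.18. The hashtag 3 brain was the highest for both, and its Col4a1 interval (3.34 to 4.40) did not overlap those of the other brains, which reached at most 2.299. Of the cells of cluster 4, 59.3% had a Col4a1 UMI, and 37.3% after each cell was thinned to 2495 UMIs. In cluster 3 these shares were 5.94% and 2.97% at a similar depth (median 3896 and 3815 UMIs per cell).

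The other clusters held Col4a1 at lower levels. The median was 1.22 in cluster 9, 1.06 in clusters 5 and 10, 0.928 in cluster 0 and 0.214 in cluster 1. Because the Rhox5-rich clusters had many cells of high depth, cluster 0 alone gave 1481 of the 4383 Col4a1 UMIs, against 448 from cluster 4. The ratio of Col4a1 to Col4a2 UMIs was 1.75 in cluster 4, 2.19 in cluster 9 and 2.44 in cluster 0. Within cluster 4 Col4a1 was higher in cells without a Rhox5 UMI than in cells with one, at 4.60 against 3.27 in the hashtag 3 brain and 2.70 against 1.71 in the hashtag 4 brain. Col4a2 followed, at 3.40 against 1.41 and 2.24 against 0.819. The part of depth in these differences was not tested.

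Col4a1 (chr8:11198423-11312889, minus strand) and Col4a2 (chr8:11312805-11449287, plus strand) are transcribed away from each other, and their annotated 5′ ends overlap by 85 bases. The 30 bases at chr8:11312801-11312830 (plus strand, RefSeq, GRCm38.p6) show how close the starts in the promoter table lie. Capitals mark the 22 bases from the Col4a2 start to the Col4a1 start.
Col4a2 and Col4a1 starts: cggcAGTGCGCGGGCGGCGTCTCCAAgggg
The other type IV pairs have the same layout: Col4a4 and Col4a3 overlap by 114 bases on chromosome 1, and the 5′ ends of Col4a6 and Col4a5 lie 1274 bases apart on chromosome X.

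The alternative type IV chains were highest in another cluster, the choroid plexus-like cluster 1. Col4a3, Col4a4 and Col4a5 form the trimer best known from the basement membrane of the kidney glomerulus. Col4a4 was at 0.244, 0.301, 0.252 and 0.169 UMIs per 10000 in cluster 1 of the 4 brains (46, 45, 45 and 32 UMIs). Col4a3 was at 0.186, 0.181, 0.112 and 0.106, and Col4a5 at 0.212, 0.174, 0.123 and 0.116. Cluster 1 held 66.9% of all Col4a4, 72.3% of all Col4a3 and 58.5% of all Col4a5 UMIs. In the endothelial-like cluster the medians were 0.022, 0.030 and 0.016. In cluster 1, Col4a1 and Col4a2 were at medians of 0.214 and 0.077, so that Col4a4 stood above Col4a2 there in all 4 brains except hashtag 4, where they were at 0.169 and 0.190. Col4a6 had 23 UMIs, 10 of them in cluster 1, and led in cluster 9 at a median of 0.055. Within the hashtag 1 to 4 brains it was highest in clusters 9, 2, 5 and 8.

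The multiplexin Col18a1, whose C-terminal fragment is endostatin, was spread over the clusters other than the CD45-tagged clusters 3 and 6. It was highest in cluster 5, at 0.358, 0.595, 0.986 and 1.40 UMIs per 10000 in the 4 brains, and stood at 0.597, 0.499 and 0.612 in cluster 0 of the hashtag 1, 3 and 4 brains. Medians in clusters 1 and 4 were 0.178 and 0.394, and in the CD45-tagged clusters 0.084 and 0.035. The related Col15a1 had 43 UMIs and led in cluster 3, in all 4 brains, at 0.113, 0.072, 0.059 and 0.072 (1, 1, 4 and 6 UMIs).

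Type VI collagen, a microfibril around many cell types, gave the most UMIs of any type. Col6a1 was at 1.09, 1.33 and 1.57 UMIs per 10000 in cluster 0 of the hashtag 1, 3 and 4 brains, and Col6a3 at 0.977, 1.19 and 1.52. In clusters 2, 7 and 10 the medians were 1.01, 1.23 and 1.38 for Col6a1 and 1.04, 1.17 and 1.65 for Col6a3. These 2 genes were close to equal there, with Col6a3 to Col6a1 ratios of 0.947, 0.985, 0.991 and 1.23 in clusters 0, 2, 7 and 10. Col6a2 followed Col6a1 at about its own ratio, with 2.22 Col6a1 UMIs per Col6a2 UMI in cluster 0 and 1.56 to 2.44 in the others. In cluster 5 the beaded filament genes together were at 0.627, 0.085, 4.72 and 6.06 UMIs per 10000 for hashtags 1 to 4. Cluster 0 was lower for hashtags 3 and 4, at 3.09 and 3.82. In the CD45-tagged clusters Col6a1, Col6a3 and Col6a2 were at medians of 0.175, 0.159 and 0.060 (cluster 3) and 0.202, 0.186 and 0.049 (cluster 6).

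Cluster 8 departed from that balance. Col6a1 was at 0.387, 2.16 and 1.56 UMIs per 10000 in its hashtag 1, 3 and 4 brains, and Col6a2 at 0.119, 2.16 and 0.846. Col6a3 was at 0.119, 0.135 and 1.54, with 4, 2 and 69 UMIs. The hashtag 3 brain thus had 32 Col6a1 and 32 Col6a2 UMIs beside 2 of Col6a3. In the hashtag 4 brain, 67 of the 69 Col6a3 UMIs were in the 31 cells with a Rhox5 UMI, and Col6a1 was at 1.86 in the cells without and 1.51 in the cells with one.

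**Figure D4:**
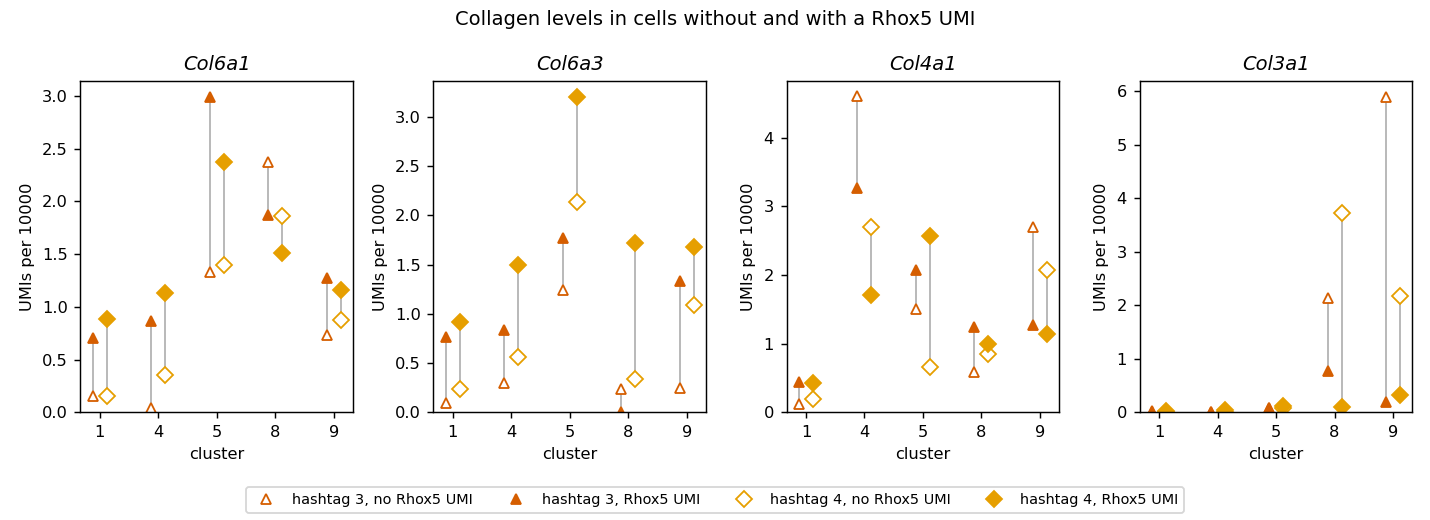
Levels in UMIs per 10000 (vertical axes) of 4 collagen genes in clusters 1, 4, 5, 8 and 9 (horizontal axes) of the hashtag 3 and 4 brains, in cells without (open symbols) and with (filled symbols) a Rhox5 UMI; grey lines join the same cluster and brain. Filled symbols are the higher ones for Col6a1 in clusters 1, 4, 5 and 9, and open symbols for Col4a1 in cluster 4 and Col3a1 in clusters 8 and 9.

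In the endothelial-like and choroid plexus-like clusters, Col6a1 and Col6a3 were higher in cells with a Rhox5 UMI than in cells without one. In the endothelial-like cluster, Col6a1 was at 0.043 in cells without and 0.866 in cells with a Rhox5 UMI of the hashtag 3 brain (1 and 27 UMIs), and at 0.356 and 1.13 in the hashtag 4 brain. In the choroid plexus-like cluster the values were 0.151 and 0.7004, and 0.155 and 0.888. Col6a3 gave 0.093 and 0.765, and 0.239 and 0.914, in the same cells. This was not particular to type VI. In the same cells Col4a1 gave 0.116 and 0.442, and 0.197 and 0.423. Col5a3 gave 0.035 and 0.226, and 0.070 and 0.262. Col8a1, Col8a2 and Col9a3 went the other way there, Col8a1 at 1.67 and 0.916, and 1.62 and 1.05. Pooled over brains, Col6a1 to Rhox5 ratios were 0.303 in cluster 0, 0.300 in cluster 4, 0.351 in cluster 1 and 0.2397 in cluster 3, and were higher in clusters 5 (0.676) and 8 (0.430). The part of depth and of free RNA in these values was not tested. Col6a6, the remaining type VI gene of the table, had 5 UMIs, 4 of them in cluster 4.

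The choroid plexus-like cluster had high levels of the type VIII genes Col8a1 and Col8a2 and of 1 type IX gene, Col9a3. The medians of Col8a2 and Col9a3 were still higher in cluster 5, at 1.26 and 2.36 against 1.16 and 2.12 in cluster 1. Col8a1 and Col8a2 encode the chains of type VIII collagen, a short-chain network collagen. Col8a1 was at 2.19, 2.33, 1.28 and 1.26 UMIs per 10000 in cluster 1 and led there in each of the 4 brains. Col8a2 was at 1.42, 1.63, 0.900 and 0.766. The hashtag 1 and 2 brains were above the hashtag 3 and 4 brains for both genes, and the Col8a1 intervals of these pairs (1.98 to 2.59 against 1.11 to 1.46) did not overlap. Cluster 1 held 70.2% of all Col8a1 and 69.7% of all Col8a2 UMIs, at a ratio of 1.503.

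Col9a3, a chain of the fibril-associated type IX collagen best known from cartilage, was at 2.31, 2.28, 1.95 and 1.66 in cluster 1. It had a UMI in 77.5% of cells there, 40.9% after thinning to 2495 UMIs, against 7.18% and 4.46% in cluster 3 (median depth 7282.5 and 3815 UMIs). Of its partner chains, Col9a2 had 8 UMIs in all cells and Col9a1 was not among the 17551 genes. In cluster 5, Col9a3 was at 3.49, 4.76, 1.23 and 0.848 and Col8a2 at 2.24, 1.87, 0.657 and 0.573. Both genes were thus above their cluster 1 levels in the hashtag 1 and 2 brains and below them in the hashtag 3 and 4 brains. Cluster 5 also held choroid plexus markers, with a summed level of 835 to 2835 UMIs per 10000 against 2758 to 3409 in cluster 1. Over the clusters, the number of Col9a3 UMIs per Ttr UMI lay between 0.000676 in cluster 1 and 0.000986 in cluster 2 for all but 2 clusters, and was 0.00141 in cluster 5 and 0.000433 in cluster 8. The part of free choroid plexus RNA in the Col9a3 levels outside cluster 1 was not tested.

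The 250 bases before the starts of the type VIII genes are shown since both chains were highest in clusters 1 and 5. They are printed as above, from chr16:57754738-57754987 (minus strand) for Col8a1 and chr4:126286544-126286793 (plus strand) for Col8a2.
Col8a1: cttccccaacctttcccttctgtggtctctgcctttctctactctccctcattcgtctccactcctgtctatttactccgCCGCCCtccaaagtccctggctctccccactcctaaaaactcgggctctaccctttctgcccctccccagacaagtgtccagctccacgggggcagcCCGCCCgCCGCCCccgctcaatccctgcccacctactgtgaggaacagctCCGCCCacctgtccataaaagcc
Col8a2: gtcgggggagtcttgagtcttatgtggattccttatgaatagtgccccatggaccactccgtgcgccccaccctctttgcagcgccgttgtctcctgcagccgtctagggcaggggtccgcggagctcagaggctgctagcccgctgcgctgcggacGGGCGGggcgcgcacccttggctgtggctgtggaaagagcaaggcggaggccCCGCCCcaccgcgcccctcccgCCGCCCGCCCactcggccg
Each window holds GGGCGG, on either strand, 4 times and neither TATAAA nor CCAAT.

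The remaining fibril-associated genes were lower. Col16a1 was spread like Col18a1, at 0.136, 0.113 and 0.140 UMIs per 10000 in cluster 0 and highest in cluster 5 at a median of 0.204. Col14a1 had 82 UMIs and led in cluster 4 at 0.093, next to cluster 3 at 0.087. Col12a1 had 53 UMIs, 25 of them in cluster 8, where it was at 0.089, 0.674 and 0.245 in the hashtag 1, 3 and 4 brains. Col20a1 had 7 UMIs. Col7a1, the chain of the anchoring fibrils below epithelia, was highest in cluster 10, at 0.478 and 0.166 in the hashtag 3 and 4 brains (12 and 7 UMIs), and at 0.109, 0.150 and 0.136 in cluster 0.

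The transmembrane collagens were rare. Col17a1, known from hemidesmosomes, had 84 UMIs, 39 of them in cluster 1. Col13a1 had 22 UMIs and led in cluster 8 at a median of 0.022, but within the hashtag 1 to 4 brains in clusters 8, 2, 7 and 5. Col23a1 had 15 UMIs, and Col25a1 had 7 UMIs, 6 of them in cluster 8. Col26a1 had 8 UMIs.

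The genes whose levels followed those of a collagen most closely were taken over 35 combinations of brain and cluster and 9958 genes of at least 200 UMIs, by Pearson's r of log2(level + 0.1), as a description. Profiles of 1 brain share a library, and similar profiles can share free RNA. For Col1a1, itself under that minimum, the leading genes were Col3a1 (r = 0.86), Plpp3, Dcn (0.78), Serping1, Nbl1, Mgp, F3 and Gpr37l1. For Col4a1 they were Col4a2 (0.91), Nes, Ppfibp1, Ahnak, Parvb, Uaca, Fkbp1a and Lims2. For Col6a1 they were Lmna (0.93), Col6a2 (0.93), Aebp1, Rbp4, Htra1, Igfbp4, Ptges and Gsn. For Col8a1 they were Clic6 (0.97), Enpp2, Sostdc1, Igf2, Igfbp2, Kcnj13, Kl and Folr1, of which 5 are on the list of choroid plexus markers. For Col9a3 they were Col8a2 (0.98), Trpm3, Stk39, Slc22a17, Slc4a10, Itgb8, Igfbp2 and Igf2. Col18a1 was closest to Igf2bp2 (0.90), Slc6a8, Calu, Micall2, Plod2, Src, Gas2l1 and Angptl2, and Plod2 is a lysyl hydroxylase that modifies collagen chains. Col5a3, the fibrillar gene with the most UMIs, was closest to Igf2bp2 (0.88), Prkcsh, Ddx27, Slc39a14, Hspd1, Abce1, Fanca and Col6a3. Col7a1 was closest to Col6a3 (0.86), Nos1, Fasn, Ano1, Prmt5, Dpp9, Ptcd3 and Hmga2.

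The antibody tags, counted in a library of their own, allowed 1 test that did not use the clusters. Cells under 300 CD45 tag counts were compared with cells of at least 300 in the same brain, on log2(mean value per 10000 + 0.1), by limma, with a term for the brain. The brains had 614, 335, 1130 and 1678 tag-low and 230, 75, 255 and 351 tag-high cells. Of the tag-high cells, 57.3% to 74.8% were in clusters 3 and 6, and their median depth was 3502 to 4471 UMIs, against 4670.5 to 13823 in tag-low cells. The tag-low cells were not of 1 kind: 14.0%, 9.55%, 69.2% and 74.0% were in the Rhox5-rich clusters and 44.0%, 57.9%, 15.5% and 10.7% in cluster 1, for hashtags 1 to 4. The part of depth and of this make-up in the differences was not tested.

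Of the 24 collagen genes tested, 3 were higher in tag-low cells, where 2.24% of all 12663 genes were, and 1 was lower, where 8.47% of all genes were (limma, Benjamini-Hochberg adjusted p of 0.05 over all genes). Col18a1 was at 0.251, 0.288, 0.468 and 0.582 per 10000 in tag-low and 0.0668, 0.129, 0.222 and 0.214 in tag-high cells of the 4 brains, and was lower in tag-high cells in each. Its difference was 0.94 on the log2 scale (SE 0.17, adjusted p = 0.0112, 4 of 4 brains, limma). Col9a3 was at 1.93, 2.08, 0.530 and 0.365 in tag-low and 0.387, 0.372, 0.267 and 0.278 in tag-high cells, and the hashtag 1 and 2 brains showed the larger gaps. The difference was 1.34 (SE 0.33, adjusted p = 0.0379, 4 of 4 brains, limma). Col4a2 was at 0.172, 0.211, 0.486 and 0.436 against 0.106, 0.0786, 0.170 and 0.227, a difference of 0.76 (SE 0.19, adjusted p = 0.0408, 4 of 4 brains, limma). Col27a1 went the other way in 4 of 4 brains, at 0.107, 0.159, 0.0297 and 0.0363 in tag-low and 0.225, 0.390, 0.173 and 0.0822 in tag-high cells. Its difference was -0.77 (SE 0.19, adjusted p = 0.0391, limma). On the log2(value + 0.1) scale such differences understate the change of low genes.

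**Figure D5:**
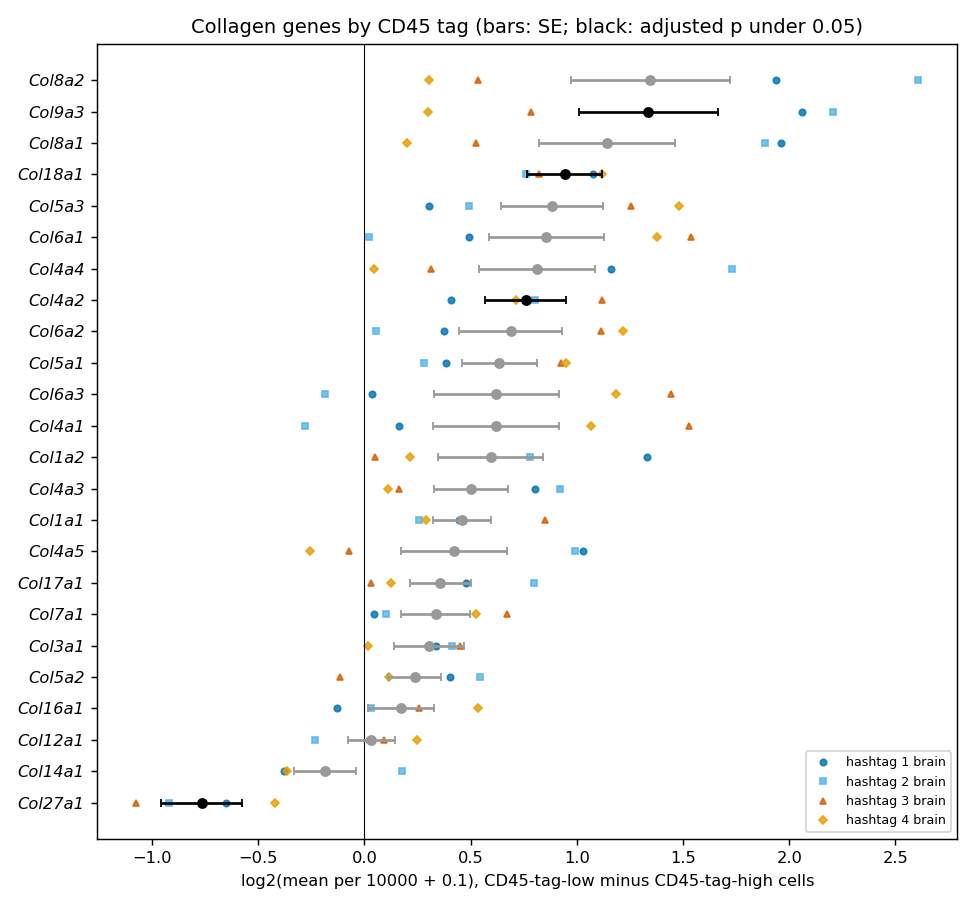
Difference of log2(mean value per 10000 + 0.1) between CD45-tag-low and CD45-tag-high cells (horizontal axis) for the 24 collagen genes tested, with the limma estimate and SE (black where the adjusted p was under 0.05, grey otherwise) and the difference in each brain (small symbols). The 3 genes higher and the 1 gene lower in tag-low cells have all 4 brains on 1 side of 0, and for Col8a1, Col8a2 and Col9a3 the hashtag 1 and 2 brains lie far to the right of the other two.

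The other 20 collagen genes did not pass. Col8a2 had a difference of 1.35 (SE 0.37, adjusted p = 0.0586, limma) and Col8a1 of 1.14 (SE 0.32, adjusted p = 0.0600, limma), with 4 of 4 brains higher in tag-low cells for both. For Col6a1 the difference was 0.86 (SE 0.27, adjusted p = 0.0868, limma), and it was 1.54 and 1.38 in the hashtag 3 and 4 brains against 0.49 and 0.02 in hashtags 1 and 2. Col1a1 was at 0.46 (adjusted p = 0.0701, limma). The median difference was 0.61 over the 24 genes and 0.054 over all genes. The calls were thin. Without the hashtag 1 brain no collagen gene passed in either direction, by limma, and 2639 genes were at an unadjusted p under 0.05. Col27a1 also lost its call without the hashtag 2 or the hashtag 3 brain (adjusted p = 0.0898 and 0.176, limma), Col9a3 without the hashtag 2 brain (0.137), and Col4a2 without any 1 of the 4 (0.0634 to 0.189). With the brain left out of the model, 0 collagen genes passed in either direction, and 1207 of all genes did (3147 at an unadjusted p under 0.05), while edgeR called Col18a1 (adjusted p = 0.0472) and Col5a3 (0.0278) higher and Col27a1 lower (0.0229). By edgeR Col9a3 and Col4a2 did not pass (adjusted p = 0.114 and 0.165).

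Genes that make, process and bind collagen were taken from lists, and their counts stand beside 2.24% higher and 8.47% lower among all genes tested. Of 18 tested genes for modification and folding, 5 were higher in tag-low cells and 0 lower: Serpinh1, the collagen chaperone of the endoplasmic reticulum (0.98, SE 0.21), the prolyl hydroxylase subunit P4ha2, and Crtap, P3h3 and P3h4. In cluster 5, the cluster with the highest collagen level, Ppib, P4hb and Serpinh1 were the highest of that list, at 2.33, 2.03 and 1.84 UMIs per 10000, and they were at 3.32, 2.21 and 2.83 in cluster 0. Serpinh1 was at 0.572 in cluster 3. Of 8 genes for processing and cross-linking, 2 were higher and 0 lower, the procollagen C-proteinase enhancers Pcolce (1.13, SE 0.17) and Pcolce2 (1.31, SE 0.18). Pcolce was at 2.07, 2.31, 1.56 and 0.505 in clusters 5, 0, 1 and 3, and Pcolce2 at 0.421, 0.407, 0.794 and 0.030. The cross-linking enzyme Loxl2 was at 0.683 in cluster 5 and 0.897 in cluster 0.

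None of 11 other basement membrane genes passed, and the 3 highest in cluster 5 were Hspg2 (perlecan, 0.835), Lamb1 (0.584) and Lama5 (0.503). Of 15 fibril-binding genes, 0 were higher and 1 lower, Fn1 (fibronectin, -1.15, SE 0.19). Sparc was at 1.86 in cluster 5, 4.73 in cluster 4 and 4.66 in cluster 3, Thbs1 at 0.461 in cluster 5 and 1.90 in cluster 3, and Bgn at 0.427 in cluster 5. Among 6 collagen receptors, Ddr1 (0.94, SE 0.19) and Ddr2 (0.89, SE 0.18) were higher in tag-low cells and Lair1, an inhibitory receptor of leukocytes, was lower (-3.11, SE 0.26). Itgb1, the shared chain of collagen-binding integrins, was at 1.52, 1.58 and 0.985 in clusters 5, 0 and 3. Of 11 genes for breakdown and its inhibitors, 0 were higher and 3 lower: Ctsk (-2.59), Mmp8 (-1.95) and Mmp9 (-2.06). Timp2, Ctsk and Timp3 were the highest of that list in cluster 5, at 3.78, 2.91 and 2.04. Ctsk had a mean of 0.041 in tag-low and 0.877 in tag-high cells, and 11.5% of the cells of cluster 5 were tag-high. Which cells of cluster 5 held Ctsk was not tested. Of 7 TGF-beta ligands and receptors, Tgfbr3 was higher (1.18, SE 0.22), and Tgfb1 (-1.36, SE 0.27) and Tgfbr1 (-2.31, SE 0.22) were lower in tag-low cells. Tgfbr3, Tgfb1 and Tgfb2 were the highest of that list in cluster 5, at 0.884, 0.631 and 0.614.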

How the data were processed

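The cells of 4 hashtagged mouse brains were run as 1 pool on the 10x Genomics single-cell 3′ assay, version 2, with antibody tags, per the labels' protocols. The submitters' processing notes name Cell Ranger 2.1 and Seurat 2.3.4 with build mm10. For the role of each, and for any filter on cells, nothing was given in the sources used here. The gene table the authors deposited holds the natural log of 1 plus UMIs per 10000 UMIs of the cell. The deposited cell table gives the authors' count of UMIs and of each tag per cell, the mitochondrial fraction as deposited (printed here in percent), the hashtag class and the cluster number.

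UMI counts were recovered from these values and came out whole within 0.01 for 99.8% of nonzero values. All deposited cells were kept, without a search for doublets. The median share of hashtag counts from the cell's own hashtag was 74.1% to 94.2% in the 4 brains. Levels, medians over brains, class shares, thinned shares of cells and exact Poisson 95% intervals were computed in Python 3.11.15, and intervals cover counting error only. CD45-tag-low and tag-high cells were compared with limma 3.58.1 (R 4.3.3), with a trend on the mean level, the pseudocount 0.1, genes of at least 50 UMIs and the brain as a block. Both groups of cells came from the same animal, and their deviations from the group means correlated in each brain (r = 0.17 to 0.26). The code was tested on simulated data. edgeR 4.0.16 on the recovered counts was 1 of the alternatives.

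Collagen genes and lists were chosen with earlier results of these data known. Genes with at least 200 UMIs were described by cluster and brain, those with 20 to 199 by leading cluster, and rarer ones by number. For each list the 3 genes highest in the cluster with the highest collagen level were named, as were the 8 genes most like Col1a1, Col4a1 and the leading gene of each other class. List genes that passed the test were also named, after their values were seen.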

Additional observations from a re-analysis of the deposited data

How the results depend on the processing

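The CD45 tag comparison passed 1356 genes, and the number was 888 with a pseudocount of 1, 899 with no filter on UMIs, 750 in cells whose own hashtag gave 80% or more of the hashtag counts (own-hashtag cells), and 867 to 1584 with 1 brain left out. The number of collagen genes higher in tag-low cells (3) became 7 with a pseudocount of 0.01, 6 with a tag count of 1000, 1 with a pseudocount of 1, with no filter or in own-hashtag cells, and 0 with no replicate block, and was 0 to 5 with 1 brain left out. The 1 collagen gene lower there became 0 with a pseudocount of 1, with no filter, with no replicate block, with a tag count of 100 and in own-hashtag cells, and was 0 to 1 with 1 brain left out. Col18a1 kept its call under every alternative but the missing block (adjusted p = 0.0634, limma) and the missing hashtag 1 brain (0.0547). By edgeR, 2 collagen genes were higher and 1 lower, among 51 higher and 1000 lower genes. The difference of Col3a1 turned to -0.076 and that of Col12a1 to -0.28 by edgeR, and Col12a1 was at -0.040 to 0.12 with 1 brain left out, the lowest without hashtag 4; neither gene had passed. The cause was not tested. Scaling by median-of-ratios moved the median over all genes from 0.054 to 0.074.

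The numbers of genes led by a cluster also moved. In own-hashtag cells the Rhox5-rich clusters led 1 and cluster 9 led 1. With cells that had a Rhox5 UMI taken out of the other clusters, an alternative chosen after seeing the data, the Rhox5-rich clusters led 6, cluster 1 led 3, cluster 9 led 2, cluster 5 led 3 and the CD45-tagged clusters 0. With only the hashtag 3 and 4 brains, also chosen after seeing the data, the Rhox5-rich clusters led 0 and the CD45-tagged clusters 2. With the mean of values per cell cluster 9 led 2 (Col3a1 and Col1a1), and with a minimum of 10 cells it led 1 (Col3a1). With 1 brain left out the Rhox5-rich clusters led 2 to 8, cluster 5 led 2 to 6, and the CD45-tagged clusters 1 to 2. The fibrillar share in cluster 9 was 35.4% from the mean of values per cell and 12.5% in cells without Rhox5. That value comes from the hashtag 1 brain alone, the only one left with 20 such cells, whose share over all its cells of cluster 9 was 11.9%. Col4a1 and Col4a2 (cluster 4), Col8a1 (cluster 1) and Col1a2, Col12a1 and Col5a2 (cluster 8) kept their leading cluster under all 9 alternatives.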
